A study of Mus musculus with 6 samples.

Results

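Genes that carry a cell through mitosis were followed in macrophages given extracellular ADP. The set held 46 mouse genes, chosen by name for a known part in mitotic entry, chromosome condensation, chromosome attachment and segregation, or the final cleavage of the cell. All 46 had probes on the array. A gene counted as measured when the scanner software marked a probe as well above background throughout the 3 controls or throughout the 3 ADP arrays. This held for 44 of the 46, among 19575 genes and other named features measured in all. Of the other two, the kinase Aurkb was not well above background on any of the 6 arrays, and the kinetochore protein Cenpf only on 1 control and 2 ADP arrays, so neither was given a difference.

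The cells were macrophages grown from bone marrow of C57BL/6 mice over 7 days in medium conditioned by L929 cells, which supplies the growth factor M-CSF. Macrophages of both groups shared that strain and culture. The ADP group received 100 µM ADP, a nucleotide that signals through purinergic receptors when it leaves damaged or activated cells, and RNA was taken at 6 h, while the control group is labelled only as control treatment for 6 h. Each group had 3 samples with 1 one-colour microarray per sample, and the question was which transcripts differ after ADP. The submitters describe different donors for each experiment but do not tie a replicate number to a donor, so the p-values measure the spread between these samples.

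Mitosis runs as an ordered programme. Cyclin B with its kinase starts it, condensins and topoisomerase II compact the chromosomes, kinetochores built on centromeres attach them to spindle microtubules, and a checkpoint holds the cell until every chromosome is attached. The anaphase-promoting complex then marks cyclin B and securin for destruction, the sister chromatids part and the central spindle guides cleavage. Most of these genes are transcribed only late in the cell cycle, so in a culture that divides in response to M-CSF their RNA follows the share of cells near mitosis. In bulk RNA, fewer dividing cells and less RNA per dividing cell cannot be told apart.

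Values, called levels below, are the log2 of a probe's signal divided by the array's 75th percentile signal, and differences are ADP minus control on that log2 scale. Levels of different genes come from different probes and are not set against each other. On each array 50.3% to 51.9% of 59305 spots were well above background and none was saturated. The arrays came from 2 slides, slide 1 with controls 1 and 2 and ADP 1, and slide 2 with control 3 and ADP 2 and 3, and the first principal component of all features, 44.9% of the variance, followed the slide. Differences are therefore also given within each slide, where slide 1 rests on a single ADP array and slide 2 on a single control. All 8 macrophage markers, Csf1r and Adgre1 among them, were measured, with a summed signal of 974 to 1331 times the 75th percentile in controls and 1177 to 1605 with ADP. Markers of other marrow cells were measured for 8 of 12 neutrophil and precursor genes (summed 42.3 to 43.7 in controls, 46.9 to 53.6 with ADP) and 5 of 5 stem and progenitor genes (3.94 to 4.54 in controls, 3.71 to 4.21 with ADP). The 1 of 6 T and NK cell markers measured read 0.50 to 0.953 in controls and 0.427 to 1.02 with ADP, and 5 of 6 stromal markers summed to 12.3 to 13.6 and 13.0 to 14.3. The 2 of 5 dendritic cell markers measured summed to 36.8 to 139.7 in controls and 36.8 to 159 with ADP, with a median difference of 0.83. Ly6g and Cd3d were not measured. The part of such cells in the results below was not tested.

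After 6 h of ADP no mitosis gene passed an adjusted p of 0.05 in limma's fit without a block. Over all 6 arrays the median difference of the set lay near 0, while it was 0.16 within slide 1 and -0.15 within slide 2. Of the 44 measured genes, 19 read higher with ADP (43.2%, against 50.8% of all features) and 25 lower, with a median difference of -0.02 against 0.00 over all features, and without scaling between arrays 27 read higher and the median was 0.06 against 0.08. The differences ran from -0.36 for the cyclin Ccnb2 to 0.44 for the centromere histone Cenpa. In limma's fit across all features the smallest adjusted p among the 44 was 0.354, and no feature of any kind passed (percent called: 0%, smallest adjusted p 0.260). An unadjusted p under 0.05 was reached by 1 of the 44, Cenpa, or 2.27%, below the 12.7% over all features.

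The precision was enough to bound every gene. For each of the 44 the 95% interval of the difference excluded a 2-fold change in either direction, and the half-width of the interval ran from 0.24 to 0.61 with a median of 0.36. No mitosis gene differed 2-fold, against 1.51% of all features that did. The differences of 32 genes lay within 0.2 of 0, and those of 19 within 0.1. Smaller changes than these intervals allow were not detectable with 3 arrays per group.

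The ADP and control arrays did not overlap for 6 of the 44 genes, or 13.6%, against 19.4% of all features. Cenpa and the kinesin Kif20a were higher on every ADP array (9.67% of all features were), and Ccnb2, the checkpoint genes Bub1b and Ttk, and the condensin subunit Smc4 were lower on every ADP array (9.72% of all features were). The plot of levels by array shows these genes among their partners.

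**Figure D1:**
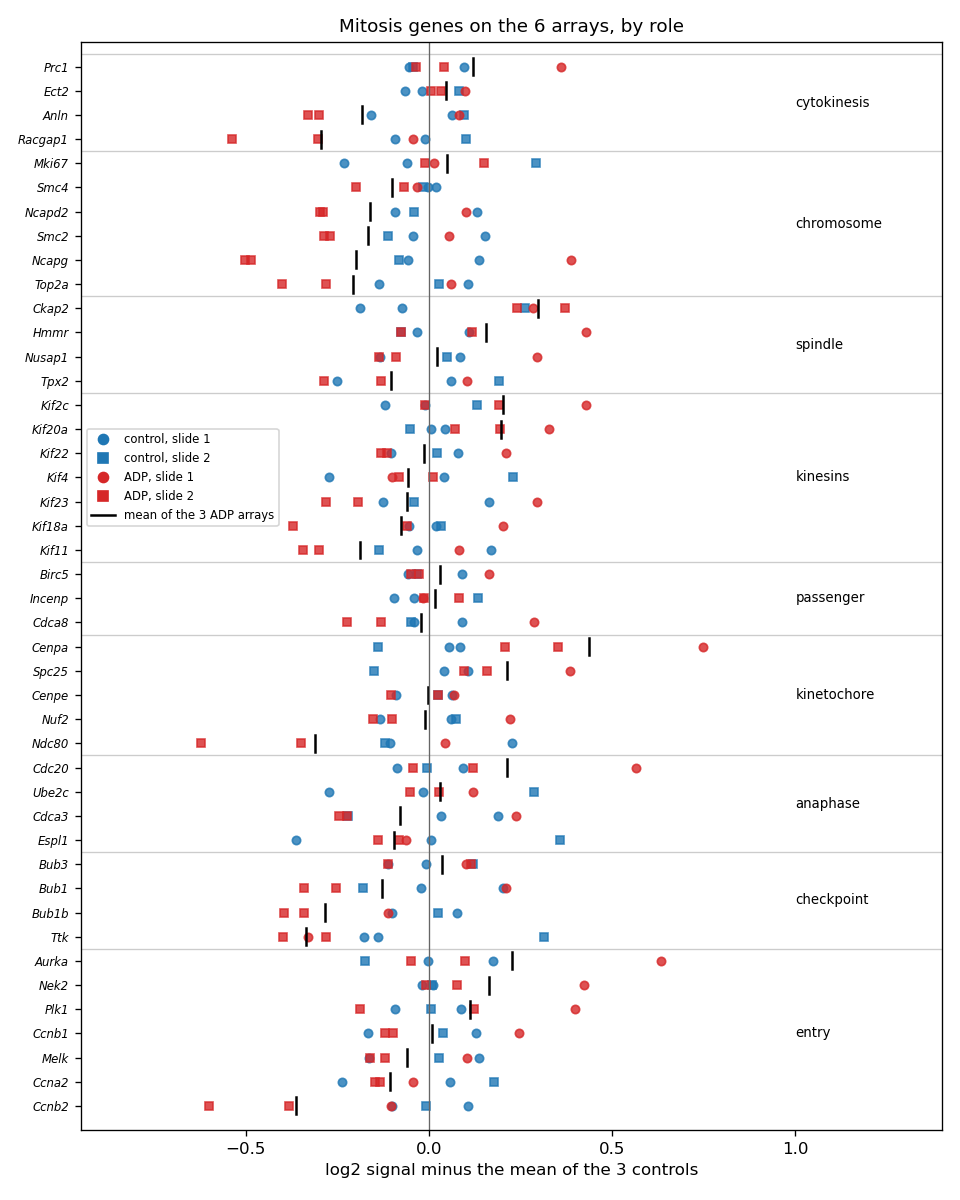
The 44 measured genes, grouped by role, with the log2 signal of each array minus the mean of the 3 controls on the horizontal axis; blue is control, red is ADP, circles are slide 1, squares are slide 2, and the black bar is the mean of the 3 ADP arrays. The red circle, ADP 1, is the highest point for 23 genes, and the red squares, ADP 2 and 3, lie to the left of it for most.

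Among the cyclins and kinases that start mitosis, 4 of 7 read higher and 3 lower, with a median difference of 0.01. Ccnb2, a B-type cyclin that activates Cdk1, had levels of 3.88, 3.68 and 3.77 on controls 1 to 3 and 3.67, 3.40 and 3.18 on ADP 1 to 3. Its ADP arrays all lay below the controls, although ADP 1 sat next to control 2. The difference was -0.36 ± 0.15 (SE, n = 3 per group), with a limma adjusted p of 0.399, and within slides 1 and 2 it was -0.11 and -0.48. Its probe lies at chr9:70255671-70255730 (mm9).

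Ccnb1, the cyclin that Cdk1 depends on most at mitotic entry, behaved otherwise, with levels of 2.57, 2.28 and 2.48 in controls and 2.69, 2.33 and 2.35 with ADP. ADP 1 lay above every control and ADP 2 and 3 among the controls, and the difference of 0.01 ± 0.15 (SE, n = 3 per group) turned to -0.017 when arrays were scaled on their medians. The kinase Aurka, which matures centrosomes and builds the spindle, had levels of 2.77, 2.59 and 2.42 in controls and 3.23, 2.54 and 2.69 with ADP. ADP 1 stood above all others, and ADP 2 and 3 lay among the controls. Its difference was 0.23 ± 0.20 (SE), and within slides 1 and 2 it was 0.55 and 0.20. The other members of this role, the cyclin Ccna2 and the kinases Plk1, Nek2 and Melk, differed by -0.11 to 0.16.

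The spindle assembly checkpoint, which delays anaphase until all kinetochores are attached, had 3 of 4 genes lower and a median difference of -0.21. Within slides 1 and 2 that median was 0.01 and -0.26. Bub1b encodes BubR1, which binds and restrains Cdc20. Its levels were 0.63, 0.45 and 0.58 in controls and 0.44, 0.21 and 0.16 with ADP, so the groups did not overlap, but ADP 1 lay only just under control 2. The difference was -0.28 ± 0.12 (SE, n = 3 per group, limma adjusted p = 0.406), and within the slides it was -0.10 and -0.39. The probe read the following stretch of the Bub1b transcript at chr2:118466830-118466889 (mm9, plus strand), shown as the place where the lower checkpoint signal was read.
Bub1b probe: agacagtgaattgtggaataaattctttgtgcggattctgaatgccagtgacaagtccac

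Ttk, the Mps1 kinase at the head of the checkpoint, had levels of -3.42, -3.46 and -2.97 in controls and -3.61, -3.68 and -3.56 with ADP. Control 3 stood above the other controls, and the 3 ADP arrays lay close together below them all. The difference was -0.34 ± 0.16 (SE, n = 3 per group, limma adjusted p = 0.447), with -0.17 within slide 1 and -0.65 within slide 2. It was -0.18 without control 3 and -0.15 with normexp background correction. The kinase Bub1 differed by -0.13, and Bub3, the WD-repeat partner that brings Bub1 and BubR1 to kinetochores, by 0.03. Bub1 also gives the spotting error, since its probe was printed 10 times per array. The SD of its spots within an array was 0.02 to 0.05 on the log2 scale, while the SD between its control arrays was 0.19.

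Of the genes around the anaphase-promoting complex, 2 of 4 read higher and 2 lower. Cdc20, the activator that the checkpoint restrains, had levels of 2.67, 2.49 and 2.57 in controls and 3.14, 2.53 and 2.69 with ADP. ADP 1 stood alone at the top, and ADP 2 lay among the controls. The difference was 0.21 ± 0.17 (SE, n = 3 per group), with 0.56 within slide 1 and 0.04 within slide 2, and it was 0.04 without ADP 1. Ube2c, the ubiquitin-conjugating enzyme of the complex, differed by 0.03, Cdca3 by -0.08 and the protease separase, Espl1, by -0.09.

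The centromere and kinetochore genes held the widest split of any role, from -0.31 to 0.44, with a median of -0.00 over 5 measured genes. Cenpa, the histone H3 variant that marks the centromere, had levels of 2.04, 2.01 and 1.82 in controls and 2.70, 2.16 and 2.31 with ADP. Every ADP array lay above every control, with ADP 1 highest and ADP 2 nearest to the controls. The difference was 0.44 ± 0.16 (SE, n = 3 per group), or 1.35-fold, with a 95% interval of 0.04 to 0.83, and limma's unadjusted p was 0.035 and its adjusted p 0.354. Within slides 1 and 2 the difference was 0.68 and 0.42. The Cenpa probe covers chr5:30974916-30975386 (mm9, plus strand), a span of 471 genomic bases for a probe of 60, so it reads across an intron and thus spliced RNA.
Cenpa probe: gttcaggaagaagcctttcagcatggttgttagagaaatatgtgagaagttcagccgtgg

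Spc25, a subunit of the Ndc80 complex that grips microtubules, read 4.03, 3.97 and 3.78 in controls and 4.31, 4.02 and 4.08 with ADP. ADP 2 lay just under control 1, so the groups overlapped, yet the difference within each slide was alike, at 0.31 and 0.28. Over all arrays it was 0.21 ± 0.13 (SE, n = 3 per group, limma adjusted p = 0.571). Ndc80, which gives that complex its name, went the other way, with 0.14, -0.19 and -0.21 in controls and -0.04, -0.44 and -0.71 with ADP. The groups overlapped, as ADP 1 lay above controls 2 and 3, and the difference was -0.31 ± 0.20 (SE, n = 3 per group), with -0.02 and -0.37 within the slides. Nuf2, the direct partner of Ndc80, differed by -0.01, and the kinetochore motor Cenpe by -0.00. Subunits of one complex were thus measured at -0.31, -0.01 and 0.21, and the differences between these subunits were not tested.

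The chromosomal passenger complex, which corrects faulty attachments and then moves to the midzone, had the narrowest range of any role over all arrays. Its measured members Birc5, Incenp and Cdca8 differed by -0.02 to 0.03 with the probe that represents each gene. Another kept probe of Cdca8 gave 0.24, and the other kept probes of Birc5 gave 0.07 and -0.19. The median of the role was 0.15 within slide 1 and -0.10 within slide 2. Birc5, or survivin, had levels of 4.92, 4.77 and 4.79 in controls and 4.99, 4.80 and 4.78 with ADP, with groups that overlapped. Its difference was 0.03 ± 0.11 (SE, n = 3 per group) and turned to -0.010 under quantile normalization. The catalytic subunit of the complex is Aurkb, the gene that was not measured.

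Of the 7 kinesins, motors that slide microtubules or carry chromosomes along them, 2 read higher and 5 lower, with a median of -0.06. Within slides 1 and 2 that median was 0.22 and -0.19. Kif20a, which moves the passenger complex to the midzone, had levels of 2.27, 2.23 and 2.17 in controls and 2.55, 2.29 and 2.42 with ADP. The controls lay close together, and all ADP arrays were above them. The difference was 0.20 ± 0.11 (SE, n = 3 per group, limma adjusted p = 0.535), with 0.30 and 0.18 within the slides. Kif2c, which takes tubulin off microtubule ends, read -0.97, -1.08 and -0.83 in controls and -0.53, -0.97 and -0.77 with ADP. Only ADP 1 and 3 were above every control, and the difference of 0.20 ± 0.15 (SE, n = 3 per group) split into 0.49 within slide 1 and -0.04 within slide 2. Kif11, Kif18a, Kif22, Kif23 and Kif4 differed by -0.19 to -0.01.

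The spindle-associated proteins had 3 of 4 genes higher and the highest median of any role, 0.09. Within slides 1 and 2 that median was 0.36 and -0.06. Ckap2, a microtubule-stabilising protein, had levels of -1.16, -1.28 and -0.83 in controls and -0.80, -0.85 and -0.72 with ADP. Control 3 lay between ADP 2 and ADP 1, and the other two controls lay below all 3 ADP arrays. The difference was 0.30 ± 0.14 (SE, n = 3 per group, limma adjusted p = 0.462), and without control 3 it was 0.43 ± 0.11 (SE, limma adjusted p = 0.323). Within slides 1 and 2 it was 0.42 and 0.04. Hmmr, Nusap1 and Tpx2 differed by -0.10 to 0.16.

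Genes that shape the chromosome were mostly lower over all arrays, 5 of 6, with a median of -0.16. Within slides 1 and 2 their median was 0.08 and -0.24. Top2a, which untangles sister DNA, had levels of 2.27, 2.03 and 2.19 in controls and 2.22, 1.88 and 1.76 with ADP. ADP 1 lay inside the control range and the other two ADP arrays below it. The difference was -0.21 ± 0.15 (SE, n = 3 per group, limma adjusted p = 0.654), with 0.07 within slide 1 and -0.37 within slide 2. Its probe, at chr11:98855522-98855581 (mm9, minus strand), read this stretch, shown because Top2a is a standard marker of cycling cells.
Top2a probe: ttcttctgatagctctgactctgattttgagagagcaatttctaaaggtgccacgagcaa

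The condensin subunits Ncapg, Smc2, Ncapd2 and Smc4 differed by -0.20 to -0.10. Smc4 had controls close together, with levels of 2.90, 2.87 and 2.86, and lay at 2.85, 2.81 and 2.68 with ADP. Its groups did not overlap, although the difference was only -0.10 ± 0.10 (SE, n = 3 per group). Mki67, which coats mitotic chromosomes and is the other standard marker of cycling cells, read 4.36, 4.19 and 4.72 in controls and 4.44, 4.41 and 4.57 with ADP. All ADP arrays lay inside the control range, and the difference of 0.05 ± 0.16 (SE, n = 3 per group) became -0.032 with the slide as a block. Both proliferation markers therefore had control and ADP arrays that overlapped.

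Of the central spindle and cytokinesis genes 2 of 4 read higher. Racgap1, a subunit of centralspindlin, had levels of 1.82, 1.74 and 1.94 in controls and 1.79, 1.53 and 1.30 with ADP. ADP 1 was within the control range and ADP 2 and 3 were below it. The difference was -0.29 ± 0.15 (SE, n = 3 per group, limma adjusted p = 0.496), with 0.01 within slide 1 and -0.52 within slide 2. Prc1, which bundles midzone microtubules, Ect2, which switches on RhoA, and the scaffold Anln differed by -0.18 to 0.12.

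**Figure D2:**
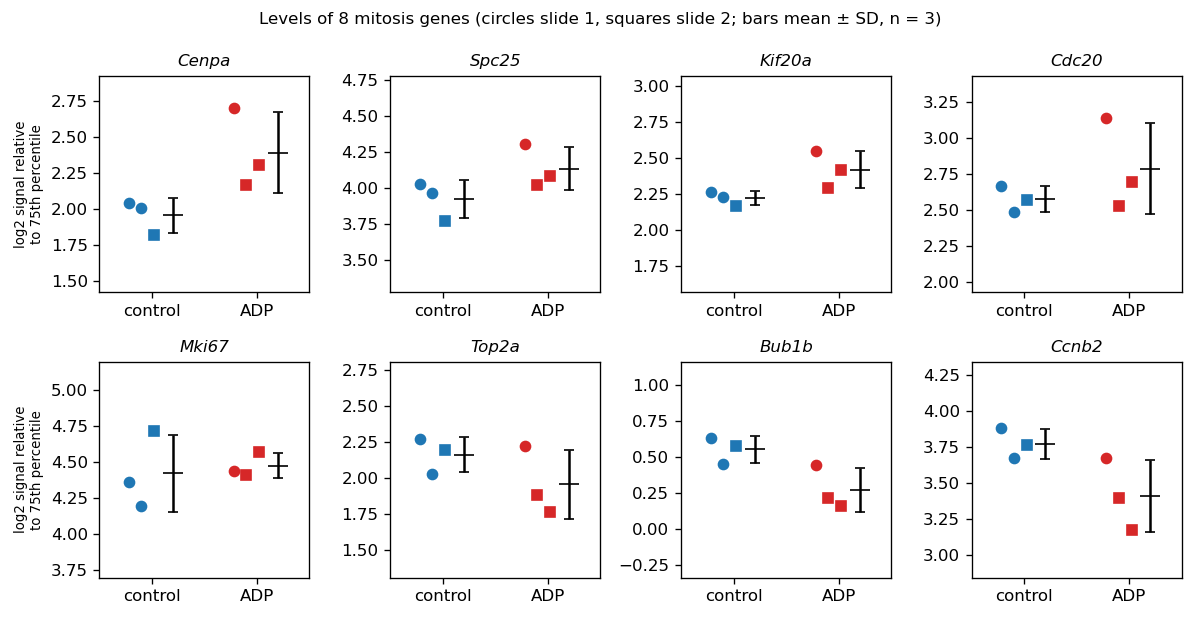
Levels (log2 signal relative to the array's 75th percentile) of 8 of the genes on the 3 control (blue) and 3 ADP (red) arrays; circles are slide 1, squares slide 2, and bars the mean ± SD, n = 3. Cenpa and Kif20a do not overlap upward, Bub1b and Ccnb2 do not overlap downward, and Mki67 overlaps fully; every panel spans the same height on its own axis.

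The genes shared a pattern across arrays that the groups did not describe. ADP 1 gave the highest of the 6 levels for 23 of the 44 genes, against 19.9% of all features, and the lowest for none of them, against 22.6%. Control 3 was highest for 11 and control 1 for 9 (29.7% and 11.8% of all features). The lowest level fell on control 2 for 15 genes, on ADP 3 for 14 and on ADP 2 for 10 (16.3%, 15.7% and 12.4% of all features). As deviations from each gene's mean over the 6 arrays, the medians of the 44 genes were 0.07, -0.10 and 0.03 on controls 1 to 3 and 0.18, -0.13 and -0.09 on ADP 1 to 3, while those of all features stayed within 0.05 of 0. Control arrays differed among themselves in the same manner: control 1 read above control 2 for 41 of the 44 genes, against 57% of all features, by a median of 0.18.

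The treatment difference of the set was read in opposite directions on the 2 slides. Within slide 1, ADP read higher for 38 of the 44 genes with a median of 0.16, where 52% of all features read higher and their median was 0.01. Within slide 2, it read higher for 9 and lower for 35, with a median of -0.15, where 45.3% of all features read higher and their median was -0.03. The difference within slide 1 was above that within slide 2 for all 44 genes, against 57.8% of all features. Higher within slide 1 and lower within slide 2 were 29 genes (22.3% of all features).

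In limma's test of the difference between the slides, 7 of the 44 had an unadjusted p under 0.05 (Ttk, Racgap1, Kif2c, Anln, Nek2, Ncapg and Ube2c), against 9.99% of all features. None passed adjustment, with a smallest adjusted p of 0.379 among the members and 0.207 over all features. The condensin subunit Ncapg had the widest gap. Ncapg also had the dimmest signal of the 44 and the widest interval of the difference, with a half-width of 0.61. Its levels were -3.95, -3.75 and -3.97 in controls and -3.50, -4.38 and -4.39 with ADP, so ADP 1 lay above every control and ADP 2 and 3 below every control, with differences of 0.35 within slide 1 and -0.41 within slide 2. Slide, donor and the single ADP array of slide 1 cannot be told apart here, and their part was not tested.

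**Figure D3:**
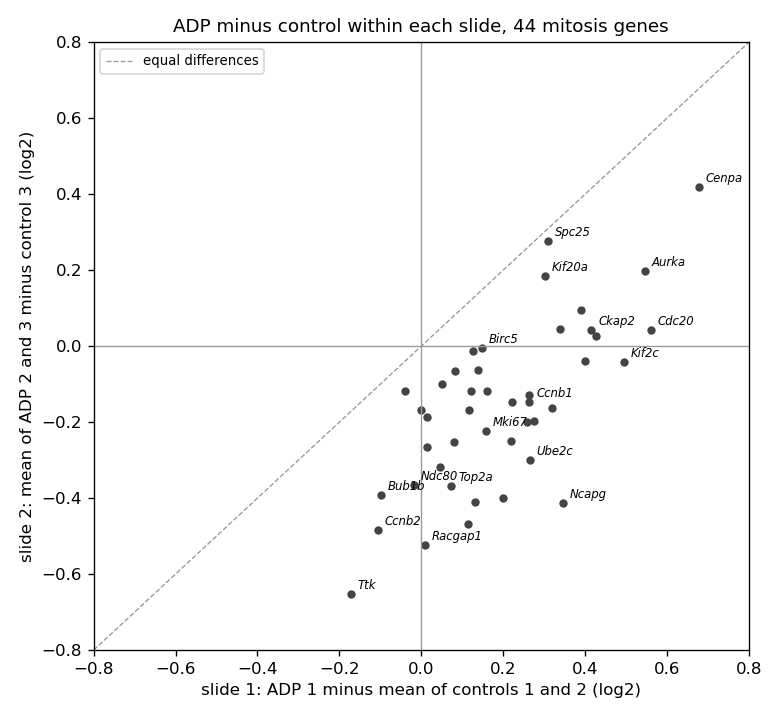
Differences of the 44 genes (ADP minus control, log2) within slide 1, where ADP 1 is set against controls 1 and 2, on the horizontal axis, and within slide 2, where ADP 2 and 3 are set against control 3, on the vertical axis. Every point lies below the dashed line of equal differences; 9 genes lie above 0 on both axes, 6 below 0 on both and 29 in the lower right quadrant.

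A minority of genes kept 1 direction within both slides. Higher in both were 9 genes, Cenpa, Spc25, Kif20a, Aurka, Cdc20, Ckap2, Hmmr, Nek2 and Prc1, where 29.7% of all features were. Lower in both were 6, Ccnb2, Bub1b, Ttk, Ndc80, Smc4 and Smc2, where 32.4% of all features were. Smc2 was lower within slide 1 by less than 0.01. The shares of the members, 20.5% and 13.6%, were below those of all features.

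With the slide as a block, 5 of the 44 genes had an unadjusted p under 0.05, against 24.3% of all features. In that fit 23 of the 44 differences were above 0, against 48.3%. Cenpa, Spc25, Aurka and Kif20a were the 4 on the higher side (10.8% of all features) and Ttk the 1 on the lower side (13.6%). Cenpa differed by 0.55 ± 0.10 (SE) in that fit, Spc25 by 0.29 ± 0.07, Aurka by 0.37 ± 0.12, Kif20a by 0.24 ± 0.08 and Ttk by -0.41 ± 0.13. None passed limma's adjustment, the smallest adjusted p being 0.0734, for Cenpa, and 0% of all features passed. When the variances were also modelled as trended and robust, Cenpa rose with a limma adjusted p of 0.021 and Spc25 with 0.031, which is 2 of 44 or 4.55%, against 9.91% of all features. At an unadjusted p under 0.05 that fit had 8 of the 44, against 26.1%.

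Without ADP 1 the set read lower. The fits with an array left out that are given here had no slide block. Without ADP 1 both remaining ADP arrays were on slide 2, while controls 1 and 2 were on slide 1. The part of the slide in this shift was not tested. The median difference of the set became -0.12, with 14 genes higher and 30 lower. An unadjusted p under 0.05 was reached by 6 genes, all lower (at that threshold 15.2% of all features were called and 7.52% were lower). They were Ccnb2 at -0.49, Ncapg at -0.49, Ndc80 at -0.49, Racgap1 at -0.42, Bub1b at -0.37 and Top2a at -0.34, with limma adjusted p-values of 0.290 to 0.315. The groups then did not overlap for 20 genes, 18 of them lower, against 37.8% of all features, with 18.6% lower. Without control 2, control 3 or ADP 2 they did not overlap for 10, 11 and 13 genes, against 29%, 37% and 30.4% of all features. Leaving out control 1, control 2 or ADP 3 left 0 of the 44 genes at that unadjusted threshold, where 7.05%, 11.7% and 5.94% of all features reached it.

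Of the 44 genes, 9 had several probes above background, 55 probes in all for the set. The probes of a gene differed by a median of 0.07 and at most by 0.26, for Birc5, whose probes gave 0.07, -0.19 and 0.03. Probes of 3 genes, Birc5, Cdca8 and Tpx2, pointed in opposite directions. The 3 Ccnb1 probes gave 0.01, 0.10 and 0.16, and the 2 Racgap1 probes -0.29 and -0.23. Every one of these probes had a higher difference within slide 1 than within slide 2.

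Since the genes shared a pattern between arrays, their promoters were read for the elements that late cell cycle genes are known to share. These are the cell cycle homology region, TTTGAA or TTTAAA, where the MuvB complex binds, and the CCAAT box of the factor NF-Y. RefSeq promoters (GRCm38.p6, 250 bases before to 50 after the start) were at hand for 40 of the 46 genes, 43 promoters in all. On either strand TTTGAA was found in 79.1% of them, against 17.9% of 32851 promoters of all genes. For TTTAAA the shares were 20.9% and 13.2%, and for CCAAT 81.4% and 37.4%. A CCAAT together with TTTGAA or TTTAAA was in 33 of the 43, against 3525 of the 32851, and at least 2 CCAAT were in 53.5%, against 11.7%. A match describes the sequence and does not show binding.

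The first base of TTTGAA lay at a median of -11 relative to the start and that of CCAAT at -68. Stretches of 5 promoters are shown, from 90 bases before the start to 30 bases from it, because these genes lay on opposite sides after ADP, Cenpa, Spc25 and Cdc20 on the higher side and Ccnb2 and Ttk on the lower. Capitals mark each TTTGAA or its variant TTTAAA and each CCAAT box, read on either strand, so a box of the opposite strand shows its reverse complement. The Cenpa stretch is chr5:30666796-30666915 on the plus strand, Spc25 chr2:69206184-69206303 on the minus strand, Cdc20 chr4:118437314-118437433 on the minus strand, Ccnb2 chr9:70421525-70421644 on the minus strand and Ttk chr9:83834599-83834718 on the plus strand, all on GRCm38.p6.
Cenpa: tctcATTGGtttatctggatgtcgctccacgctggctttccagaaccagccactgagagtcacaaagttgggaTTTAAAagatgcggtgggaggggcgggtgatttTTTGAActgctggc
Spc25: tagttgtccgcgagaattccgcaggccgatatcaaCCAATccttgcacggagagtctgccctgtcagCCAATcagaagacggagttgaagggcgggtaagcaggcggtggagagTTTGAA
Cdc20: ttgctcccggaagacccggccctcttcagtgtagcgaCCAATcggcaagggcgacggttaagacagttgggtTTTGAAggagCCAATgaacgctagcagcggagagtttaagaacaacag
Ccnb2: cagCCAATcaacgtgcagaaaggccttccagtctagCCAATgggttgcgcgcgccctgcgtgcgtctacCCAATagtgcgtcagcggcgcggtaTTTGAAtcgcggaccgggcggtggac
Ttk: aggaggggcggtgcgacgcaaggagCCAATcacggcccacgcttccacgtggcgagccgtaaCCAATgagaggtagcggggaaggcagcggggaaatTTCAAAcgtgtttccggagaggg
All 5 stretches hold TTTGAA and at least 1 CCAAT, as 79.1% and 81.4% of the promoters of the set did in their full length. With 5 chosen promoters this cannot show whether the elements go with the direction after ADP, which was not tested.

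Regulators of mitotic transcription and the steps before mitosis were read from lists of related genes. Of 24 regulators 1 was higher and 2 were lower at an unadjusted p under 0.05 (over all features 6.55% higher and 6.18% lower), and none passed limma's adjustment, with a median difference of -0.05. The slide block gave counts of 1 higher and 2 lower (10.8% and 13.6% of all features). With trended and robust variances as well 0 rose and 2 fell after limma's adjustment, where 9.91% of all features were called. The retinoblastoma gene Rb1 differed by -0.52 ± 0.12 (SE), the repressor E2f8 by -0.46 ± 0.12, E2f7 by -0.26 ± 0.12, and the CDK inhibitor Cdkn1a by 0.41 ± 0.14. Foxm1, the activator of many late cell cycle genes, differed by 0.21 ± 0.12. Differences within slides 1 and 2 were 0.49 and 0.32 for Cdkn1a and -0.54 and -0.48 for E2f8. These genes were named for their small p, which favours 1 direction on both slides. Of the 24 regulators 14 read higher within slide 1 and 8 within slide 2 (52% and 45.3% of all features). The difference was higher within slide 1 than within slide 2 for 19 of the 24, against 57.8% of all features.

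Another 71 measured mitosis genes, of 73 listed, had 2 higher and 7 lower at that threshold and a median of -0.07, with 0.05 within slide 1 and -0.19 within slide 2. The slide block gave 5 higher and 6 lower (10.8% and 13.6% of all features), and with trended and robust variances as well 3 rose and 2 fell after limma's adjustment (9.91% of all features were called). The centromere genes Cenpm and Cenpp differed by -0.58 ± 0.13 (SE) and -0.66 ± 0.16, the Cdk1-inhibiting kinase Wee1 by -0.57 ± 0.16 and the checkpoint ATPase Trip13 by -0.45 ± 0.14, while the abscission protein Cep55 differed by 0.41 ± 0.12. Apart from Cep55, each of these was larger in size than any difference among the 44. The difference was higher within slide 1 than within slide 2 for 58 of the 71, against 57.8% of all features.

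DNA replication and S-phase genes leaned lower, with 0 higher and 6 lower of 42 measured at an unadjusted p under 0.05 (6.55% and 6.18% of all features) and a median of -0.16. The slide block gave 2 higher and 12 lower (10.8% and 13.6%), and with trended and robust variances as well 1 rose and 6 fell after limma's adjustment, where 9.91% of all features were called. The licensing factor Cdt1 differed by -0.61 ± 0.13 (SE), the DNA methylation maintenance factor Uhrf1 by -0.63 ± 0.15, and the helicase subunits Mcm2 and Mcm3 by -0.50 ± 0.15 and -0.41 ± 0.13. Their list had a lower median within both slides, -0.07 and -0.30. Of the 42 genes 18 read higher within slide 1 and 4 within slide 2 (52% and 45.3% of all features). For 38 of the 42 the difference was higher within slide 1 than within slide 2, against 57.8% of all features. Of 13 G1 cyclins, kinases and inhibitors, 0 read higher and 2 lower at the same unadjusted threshold (6.55% and 6.18% of all features). The median of these 13 was -0.15. The counts higher and lower were 2 and 6 with the slide as a block (10.8% and 13.6% of all features). With trended and robust variances as well 1 rose and 2 fell after adjustment, where 9.91% of all features were called. The 2 lower without a block were the M-CSF-responsive cyclin Ccnd1, by -1.60 ± 0.31 (SE, limma adjusted p = 0.260), and its partner kinase Cdk6, by -0.89 ± 0.26 (adjusted p = 0.284). Whether the mitosis genes differed less than these lists was not tested.

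**Figure D4:**
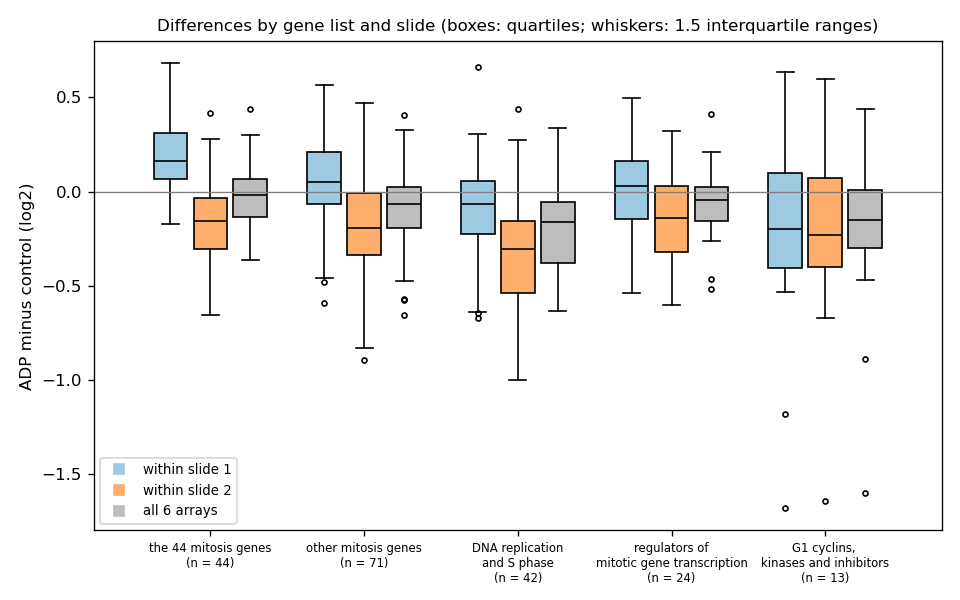
Differences (ADP minus control, log2) of the 44 mitosis genes and 4 related lists, within slide 1 (blue), within slide 2 (orange) and over all 6 arrays (grey); boxes are quartiles, whiskers 1.5 interquartile ranges, and circles genes beyond them. The medians of the 44 genes are 0.16, -0.15 and -0.02, and those of the S-phase list are -0.07, -0.30 and -0.16; the lowest circles belong to Ccnd1.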

How the data were processed

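RNA of 3 control and 3 ADP macrophage samples was hybridised to 1 array each. Per the file headers and the submitters' processing notes, the authors extracted each spot's intensity with Agilent Feature Extraction 10.7.1.1 (protocol GE1_107_Sep09, probe positions on mm9), with background subtracted array by array. As deposited, the intensity carries no scaling between arrays, and the whole-series value table held the same values for 55681 of 55681 probes.

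Control spots and outlier spots were left out, spots of a probe were averaged, and log2 intensity was set against each array's own 75th percentile. A gene was represented by its kept probe with the highest mean. Groups were compared with limma 3.58.1 in R 4.3.3 over 19575 features, two-sided, with Benjamini-Hochberg adjustment at 0.05 and no block. The smallest exact permutation p for 3 against 3 arrays is 0.1. The fit was tested on simulated data.

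The mitosis genes, the related lists and the alternatives were chosen with earlier results of these data known. Values on every array are given for the 12 members with the smallest p, the first member of each role, and Mki67, Top2a, Ccnb1, Cdc20, Cenpa and Aurkb (not measured, so without values), and Aurka, Smc4 and Ncapg were added after their values were seen. From each related list up to 5 genes with the smallest p are named. Gene names were updated through a RefSeq table of GRCm38.p6 where a probe matched it, and 26005 of 55681 probes kept the scanner file's own name. Some marker lists are not reported here. Alternatives were the slide or replicate number as a block, trended and robust variances, normexp with an offset of 50, quantile, median or no scaling, other filters and probe rules, and leaving out each array.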

Additional observations from a re-analysis of the deposited data

How the results depend on the processing

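No setting but 1 gave a mitosis gene an adjusted p under 0.05: the slide block with trended and robust variances gave 2 (9.91% of all features). The count at an unadjusted p under 0.05, 1 as reported (12.7% of all features), was 5 with the slide block (24.3%). It was 8 with the slide block and trended variances (26.1%). Trended variances alone gave 3 (2482 of 19575 features), normexp 2 (2154), median scaling 2 (1990) and the filter on all 6 arrays 2 (2330 of 18661). Without a filter on dim probes the count stayed 1 for the 44 genes. It was 2 when Aurkb and Cenpf, which had failed the filter, were counted too (2742 of 36095 features). Leaving out each array in turn gave 0 to 6, against 1163 to 2982 of 19575 features. The count of genes whose groups did not overlap, 6 as reported, was 3 under quantile normalization (19.9% of all features). With an array left out it was 6 to 20 (4314 to 7402 of 19575 features), where fewer arrays also leave less chance to overlap. The median difference, -0.02, was 0.16 within slide 1 and -0.15 within slide 2, a shift above the spread of 0.13 between array medians. Over the 17 settings that used both slides, 12 of the 15 genes followed kept their direction, and Cenpa ran from 0.28 to 0.55. Those 12 were the members with the smallest p in these data, a choice that favours a kept direction. Birc5, Mki67 and Ccnb1, followed for other reasons, did not keep it, and the remaining members were not followed. Within slide 1 Cenpa was 0.68, and Racgap1 and Top2a turned to 0.0093 and 0.074. Within slide 2 Kif2c turned to -0.041, Birc5 to -0.0044, Mki67 to -0.22 and Ccnb1 to -0.15. Birc5 turned to -0.010 with quantile normalization and -0.033 with the mean of its probes, and ran from -0.038 to 0.075 with an array left out. Mki67 turned to -0.032 with either slide block and ran from -0.065 to 0.20. Ccnb1 turned to -0.017 with median scaling and ran from -0.11 to 0.074. The cause was not tested. The replicate block, a paired fit on the replicate numbers, gave 2 genes at an unadjusted p under 0.05, against 12.7% of all features. That block changed no adjusted call. Deviations from the group means of same-numbered arrays correlated across features at 0.42, -0.40 and 0.43. Every control correlated positively with the ADP arrays of its own slide and negatively with those of the other slide. Control 2 and ADP 2 were on different slides, so these values cannot decide whether the numbers are pairs. The numbers were not taken as pairs because no label ties them to a donor. The number of arrays, 3 per group on 2 slides, limits the precision.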
